A study of Mus musculus with 10 samples.

Results

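Malat1 and Neat1 are long non-coding RNAs that stay in the nucleus, and their neighbouring genes lie on mouse chromosome 19. They were taken from a table of transcript levels in the left ventricle of pressure-loaded mouse hearts by matching its Ensembl transcript identifiers to symbols of the GENCODE M21 annotation. The match gave 8 transcripts of 20741 in the table, 4 of Malat1 and 4 of Neat1. Summed per gene they made 2 of 14771 genes and assembled loci. All 8 were annotated transcripts, and their genes were chosen by name and not by their values.

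The samples were 4 Sirt5 knockout left ventricles, numbered 2 to 5, and 6 wild-type left ventricles, numbered 1 and 3 to 7. Sirt5 encodes a mitochondrial enzyme that removes acyl groups from lysines. Each sample came from a C57BL/6 animal 6 weeks after transverse aortic constriction (TAC), in which a band around the aortic arch puts a pressure load on the left ventricle, so both genotypes carried the banding. The design text describes male C57BL/6N mice that were 5 weeks old, a conventional CRISPR/Cas9 knockout, and a tamoxifen-inducible Cre-ERT2 system with 1 mg of tamoxifen daily for 10 days and 4 weeks of waiting before TAC. It does not say which animals received Cre-ERT2 and tamoxifen, names no promoter for the Cre, and mentions sham animals, which were not analysed here. The labels do not tie samples to separate animals. The p-values below therefore rest on the spread among these samples, and part of that spread may be technical.

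Malat1 is known for its accumulation in nuclear speckles, bodies rich in splicing factors. Neat1 is transcribed as a short and a long form from the same start, and the long form is the scaffold of paraspeckles, nuclear bodies that hold RNA-binding proteins. The 3′ ends of Malat1 and of long Neat1 are cut by RNase P, and in place of a poly(A) tail they keep an A-rich end that pairs with upstream U-rich stretches. Both RNAs have been studied in stressed and hypoxic tissue.

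Levels were read as FPKM, the fragments of a transcript divided by its length in kilobases and by the library's mapped fragments, so that levels of different genes can be compared per length. The steps between low FPKM values gave estimated depths of 22700000 to 25800000 fragments in the 4 knockout libraries and of 24700000 to 29900000 in the 6 wild-type libraries. Between 53.6% and 59.3% of the values fell within 0.1 of a whole number of fragments at these depths, so fragment numbers below are estimates. Knockout replicate 5 stood apart: 44 of the 1122 tested genes and loci were at least 1 log2 unit above the median of the other samples in it and 96 at least 1 unit below. The other 9 libraries had 8 to 18 above and 19 to 38 below. Results are therefore given with and without knockout replicate 5. The heart transcripts Hand2os1 and Mhrt were above 0 in all 10 samples, with Hand2os1 at 15.4 to 22.0 FPKM in knockouts and 18.1 to 33.4 FPKM in wild types. The mRNAs that define cardiomyocytes and other heart cells were not analysed here. Nor was Sirt5, so the genotype labels were not checked against its level.

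Malat1 (ENSMUSG00000092341.3) is annotated on the minus strand of GRCm38 at chr19:5795690-5802672, as a lincRNA. Neat1 (ENSMUSG00000092274.3), also a lincRNA on the minus strand, spans chr19:5824708-5845478, upstream of Malat1, and 22035 bases separate them. Full Malat1 (ENSMUST00000172812) is a single exon of 6983 bases. The 5′ spliced Malat1 (ENSMUST00000173499) is 485 bases long, lies at the 5′ end of the full transcript and has an intron of 271 bases. The 2 other Malat1 transcripts, of 556 bases (ENSMUST00000173314) and 656 bases (ENSMUST00000174808), are spliced and lie at the 3′ end. Long Neat1 (ENSMUST00000173672) is a single exon of 20771 bases, and short Neat1 (ENSMUST00000174287) has 3004 bases and an intron of 166 bases. A 4-exon Neat1 transcript of 1030 bases (ENSMUST00000174829) lies within the region of the short form. A distal Neat1 transcript of 711 bases and 3 exons (ENSMUST00000232969) lies within the last part of the long form. The short form ends 3172 bases into the long form, which runs on for 17599 bases.

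**Figure D1:**
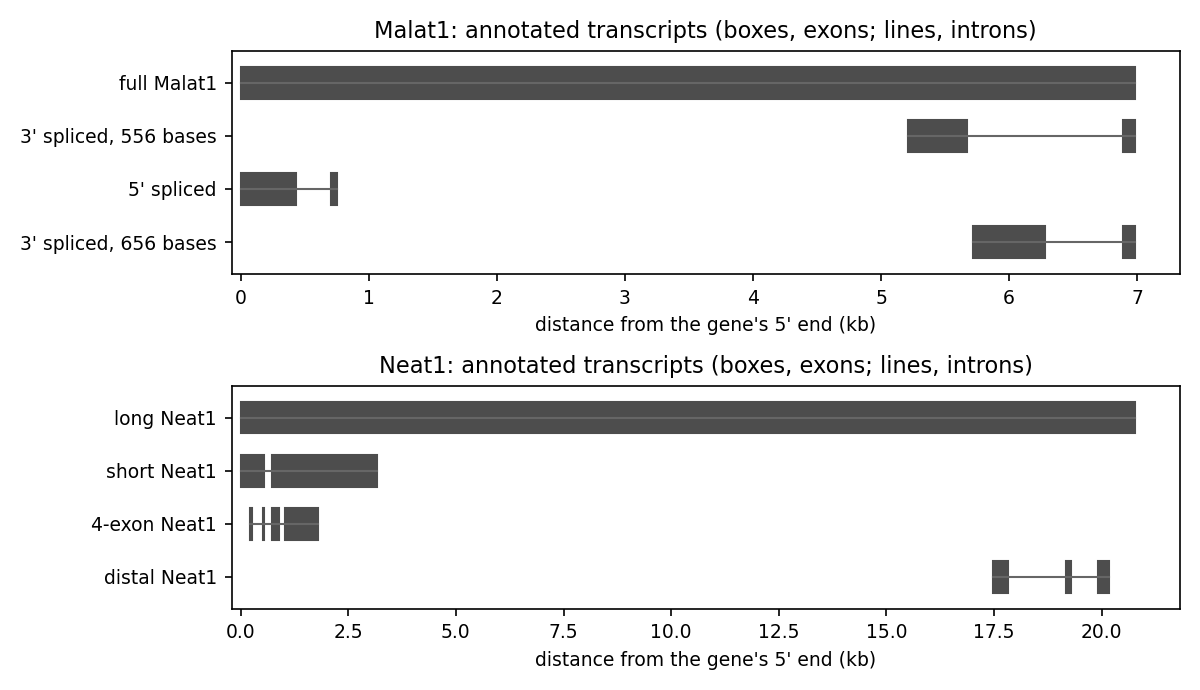
Annotated transcripts of Malat1 (top) and Neat1 (bottom), drawn to scale as distance in kilobases from the 5′ end of each gene, with boxes for exons and lines for introns. Full Malat1 and long Neat1 cover the whole of their genes, short Neat1 stops 3172 bases into long Neat1, and every shorter transcript lies inside the span of the long one.

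Every short isoform lies inside the span of a long single-exon one, so a short form is told apart mainly by its splice junctions and its end, whereas reads from the rest of the long transcript belong to the long form. The junctions are shown first, each with 5 bases on either side of the joint in capitals, followed by the unspliced sequence with the first or last 2 bases of the intron in capitals. All are GRCm38, minus strand, 5′ to 3′. The spliced Malat1 sequence spans chr19:5801942-5802262, the unspliced ones chr19:5802213-5802262 and chr19:5801942-5801991. The spliced Neat1 sequence spans chr19:5844734-5844949, the unspliced ones chr19:5844900-5844949 and chr19:5844734-5844783.
5′ spliced Malat1 junction: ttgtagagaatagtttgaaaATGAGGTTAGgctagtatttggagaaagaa
Full Malat1 at the start of the intron: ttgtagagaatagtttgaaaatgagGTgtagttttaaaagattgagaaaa
Full Malat1 at the end of the intron: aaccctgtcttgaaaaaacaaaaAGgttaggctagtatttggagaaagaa
Short Neat1 junction: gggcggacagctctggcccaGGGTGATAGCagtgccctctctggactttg
Long Neat1 at the start of the intron: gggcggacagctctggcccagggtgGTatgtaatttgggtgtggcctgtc
Long Neat1 at the end of the intron: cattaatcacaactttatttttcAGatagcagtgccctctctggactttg
Both introns begin with GT and end with AG, the usual letters of spliced introns. The 4-exon Neat1 transcript has the same intron as short Neat1, so this junction separates both from long Neat1 and does not identify the short form by itself. A read inside exon sequence that isoforms share cannot be assigned to a single isoform, so the isoform levels below are StringTie's estimates.

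The 3′ ends set the forms apart by sequence as well. They are shown because the short Neat1 ends like a polyadenylated RNA, whereas long Neat1 and Malat1 share the elements of their RNase P ends. Capitals mark AATAAA, the signal for cutting and polyadenylation, in the short Neat1 end (chr19:5842307-5842366), and mark the stretches of at least 10 bases shared by the full Malat1 region (chr19:5795982-5796059) and the long Neat1 end (chr19:5824708-5824767), all GRCm38, minus strand.
Short Neat1 3′ end: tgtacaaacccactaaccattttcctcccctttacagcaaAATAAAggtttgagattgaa
Full Malat1 3′ end region: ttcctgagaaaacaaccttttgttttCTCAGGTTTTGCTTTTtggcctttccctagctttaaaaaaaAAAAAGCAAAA
Long Neat1 3′ end: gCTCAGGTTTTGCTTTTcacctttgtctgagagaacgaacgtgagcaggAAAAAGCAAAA
The shared U-rich stretch is 16 bases long and occurs in 2 of the 18969 matched transcripts of the table (0.0105%), these 2. The shared A-rich stretch of 11 bases occurs in 77 of them (0.406%). AATAAA stands 14 bases before the end of short Neat1 and is not in the last 60 bases of long Neat1, and 30.0% of the table's transcripts of at least that length hold it there. The annotated end of full Malat1 lies 298 bases after the A-run of 12 bases and has an AATAAA of its own, as have both 3′ spliced transcripts.

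Malat1 was among the most abundant long non-coding RNAs in these hearts, sixth by FPKM in 8 of the 10 samples. It stood at 78.9, 59.8, 70.3 and 951 FPKM in knockout replicates 2, 3, 4 and 5. In wild-type replicates 1, 3, 4, 5, 6 and 7 it stood at 81.8, 77.7, 73.9, 58.4, 75.4 and 69.1 FPKM. Knockout replicate 5 alone lay far above all other samples, and the other 3 knockouts lay within the wild-type range. In bulk tissue, more RNA per cell and more cells of a type that holds the RNA cannot be told apart.

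The mean of Malat1 was 290.1 ± 441 FPKM in knockouts (SD, n = 4), and 72.7 ± 8.16 FPKM in wild types (SD, n = 6). Without knockout replicate 5 the knockout mean was 69.7 ± 9.56 FPKM (SD, n = 3). On the log2(FPKM + 1) scale the fold change of knockout over wild type was 0.88 (SE 0.674, limma adjusted p = 0.669), and an exact two-sided permutation test gave p = 0.552 (210 arrangements). Without that library the fold change was -0.06 (SE 0.179, limma adjusted p = 0.953). The direction of the Malat1 difference between the genotypes therefore hung on 1 library.

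In knockout replicate 5 Malat1 was 12.9-fold above the median of the other 9 samples, 73.9 FPKM. It accounted for 0.659% of the mapped fragments of that library, an estimated 156068 fragments. In the other knockouts it took 0.0390% to 0.0454%, and in wild types 0.0281% to 0.0519%. By difference from the median of the other samples on the log2(FPKM + 1) scale, Malat1 had rank 3 and Neat1 rank 4 among the 1122 genes and loci in that library. Neat1 is among the 1122 only through its value in that library, so its rank there is not independent of the filter.

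**Figure D2:**
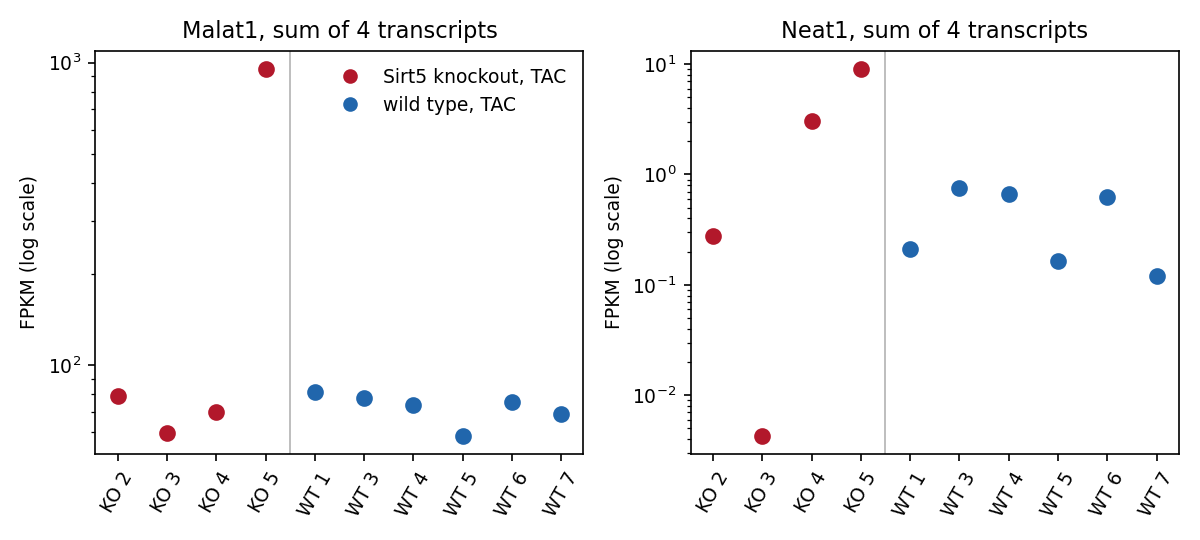
FPKM of Malat1 (left) and Neat1 (right), each the sum of its 4 transcripts, in every Sirt5 knockout and wild-type sample, on log axes that differ between the panels. Malat1 lies between 58.4 and 81.8 FPKM in all samples except knockout replicate 5 (951 FPKM), whereas Neat1 is high in knockout replicates 4 and 5 and lowest in knockout replicate 3.

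The full single-exon transcript carried the high value. Full Malat1 had 64.0, 59.1, 54.8 and 943 FPKM in knockout replicates 2 to 5, against 62.7, 66.3, 51.7, 38.9, 74.3 and 58.2 FPKM in the 6 wild types. The 5′ spliced Malat1 had 14.1, 0, 14.9 and 7.49 FPKM in the knockouts, against 18.8, 10.8, 21.9, 18.7, 0 and 10.7 FPKM in the wild types. The 5′ spliced form was thus not raised in knockout replicate 5, where the full transcript was at its highest. It was listed at 0 in 1 sample of each genotype, knockout replicate 3 and wild-type replicate 6.

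As a share of Malat1 FPKM, full Malat1 made up 81.2%, 98.9%, 78.0% and 99.2% in the knockouts. In the wild types it made up 76.7%, 85.3%, 69.9%, 66.6%, 98.5% and 84.3%. The 2 genotypes overlapped. The mean share was 89.3 ± 11.3% in knockouts and 80.2 ± 11.7% in wild types (SD, n = 4 and n = 6, exact permutation p = 0.276), a difference of 9.09 percentage points. For the 5′ spliced form the difference in share was -8.99 percentage points (exact permutation p = 0.295). That form is short, and by estimated fragments it held at most 1.86% of Malat1 in a knockout and at most 3.22% in a wild type.

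The 3′ spliced transcripts added little. The 556-base transcript ran from 0.450 to 0.721 FPKM in knockouts and from 0.151 to 1.12 FPKM in wild types, and its lowest knockout value was in replicate 5. The 656-base transcript was listed at 0 in all samples but wild-type replicate 5, where the table gave 1e-06 FPKM. Gm37376 is a gene of the opposite strand that overlaps the 5′ end of Malat1. It was listed at 0 in the knockouts and in wild-type replicates 3, 4 and 5. The other wild types reached at most 0.149 FPKM. The sources used here do not say whether StringTie was given the strand of the reads.

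**Figure D3:**
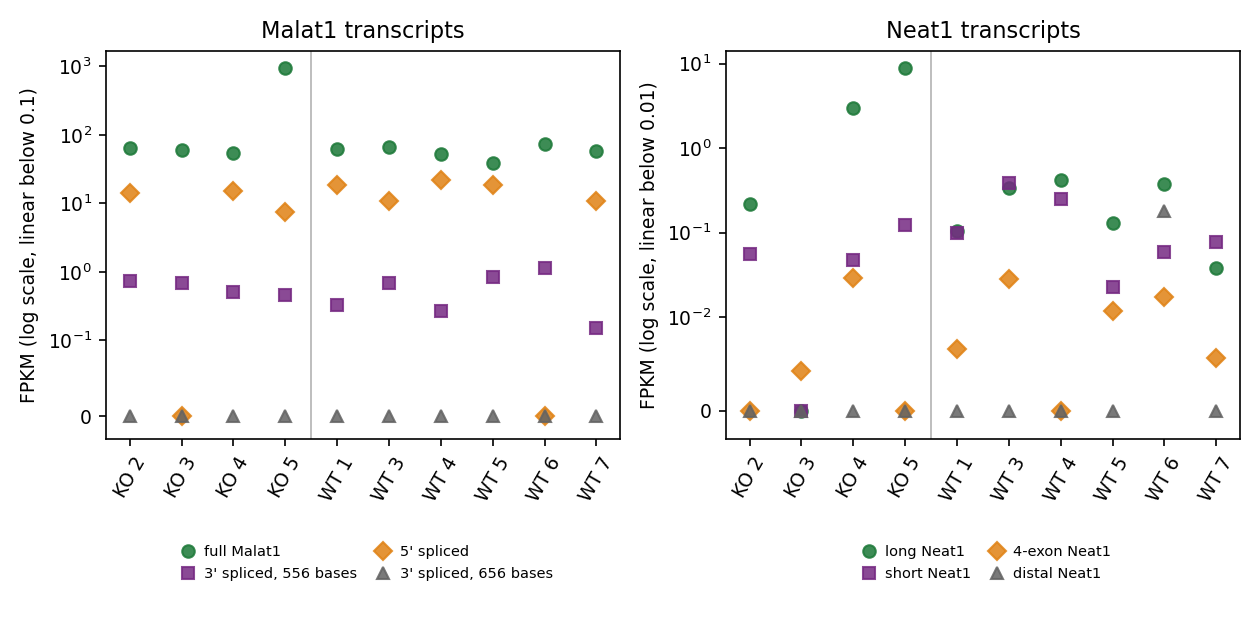
FPKM of each annotated transcript of Malat1 (left) and Neat1 (right) per sample, knockouts left of the grey line and wild types right of it, on a log axis that is linear near 0. The high values of knockout replicate 5 (943 FPKM for full Malat1 and 8.90 FPKM for long Neat1) and of knockout replicate 4 (3.00 FPKM for long Neat1) stand in the long single-exon transcripts, and symbols at 0 overlie each other.

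Neat1 was far less abundant than Malat1 in every sample, and varied more among the knockouts than among the wild types. It had 0.275, 0.00429, 3.08 and 9.02 FPKM in knockout replicates 2 to 5. In wild types it had 0.210, 0.756, 0.670, 0.165, 0.630 and 0.120 FPKM. The knockouts therefore held both the highest values, in replicates 4 and 5, and the lowest, in replicate 3, and the genotypes overlapped through replicates 2 and 3.

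Mean Neat1 was 3.09 ± 4.19 FPKM in knockouts (SD, n = 4), 1.12 ± 1.70 FPKM in the 3 knockouts without replicate 5, and 0.425 ± 0.289 FPKM in wild types (SD, n = 6). The log2 fold change on the log2(FPKM + 1) scale was 0.94 (SE 0.560, limma adjusted p = 0.572, exact permutation p = 0.238). It was 0.31 (SE 0.454, limma adjusted p = 0.885) without knockout replicate 5, 0.74 (limma adjusted p = 0.704) without knockout replicate 4 and 1.42 (limma adjusted p = 0.302) without knockout replicate 3. Neat1 was positive in each of these fits and passed in none. It reached the filter on mean FPKM only through knockout replicate 5, so that its place among the tested genes is itself owed to that sample.

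The high Neat1 values were values of the long form. Long Neat1 had 0.219, 0, 3.00 and 8.90 FPKM in knockout replicates 2 to 5, against 0.104, 0.342, 0.422, 0.130, 0.377 and 0.0381 FPKM in the wild types. Short Neat1 had 0.0561, 0, 0.0467 and 0.122 FPKM in the knockouts, against 0.0995, 0.386, 0.248, 0.0229, 0.0584 and 0.0764 FPKM in the wild types. All short-form values of the knockouts other than the 0 of replicate 3 lay within the wild-type range. In knockout replicates 4 and 5 the long form was thus high and the short form was not.

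The estimated fragments show what these levels rest on. Neat1 as a whole had about 122, 0.107, 1422 and 4385 fragments in the knockouts, and between 25.4 and 284 in the wild types. The short form rested on at most 8.65 estimated fragments in a knockout and at most 29.3 in a wild type. In knockout replicate 3 the long and the short form were both listed at 0, and the value of the gene came from the 4-exon transcript alone, at less than 1 estimated fragment. A value listed at 0 does not show that the RNA was absent. The 4-exon transcript stayed at or below 0.0294 FPKM in knockouts and 0.0286 FPKM in wild types, and the distal transcript was above 0 only in wild-type replicate 6, at 0.178 FPKM.

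As a share of Neat1 FPKM, the long form made up 79.6%, 0%, 97.5% and 98.7% in knockout replicates 2 to 5. In the wild types it made up 49.5%, 45.2%, 63.0%, 78.9%, 59.7% and 31.7%. The 3 knockouts in which the long form was detected lay above all wild types, by a narrow margin for replicate 2, and replicate 3 lay below them all. Over all 10 samples the mean share was 69.0 ± 46.8% in knockouts and 54.7 ± 16.3% in wild types (SD, n = 4 and n = 6, exact permutation p = 0.495). Without knockout replicate 3, whose share has less than 1 fragment behind it, the knockout mean was 91.9 ± 10.7% (SD, n = 3), 37.3 percentage points above wild type (exact permutation p = 0.0238, where the smallest possible p is 0.0119). Adjusted over the 7 measures tested in this way that p was 0.167. By estimated fragments the long form made up 96.4%, 99.7% and 99.8% of Neat1 in knockout replicates 2, 4 and 5 and 77.1% to 97.1% in the wild types, and on that scale knockout replicate 2 lay within the wild-type range.

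The short form gave the other side of these shares. Short Neat1 made up 20.4%, 0%, 1.52% and 1.35% of Neat1 FPKM in the knockouts, and 47.3%, 51.0%, 37.0%, 13.9%, 9.26% and 63.6% in the wild types. The 2 genotypes overlapped through knockout replicate 2 and wild-type replicates 5 and 6. The mean share was 5.81 ± 9.74% in knockouts and 37.0 ± 21.5% in wild types, a difference of -31.2 points (SD, n = 4 and n = 6, exact permutation p = 0.0286). Adjusted over the 7 measures the p was 0.200, so the difference did not pass. Without knockout replicate 5 or without knockout replicate 3 the exact permutation p was 0.0714 in each case.

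Neither gene passed the test across all genes: 0 of the 2 had a limma adjusted p below 0.05, against 0.178% of the 1122 genes and loci tested (2 of 1122), and 0 of the 2 at an unadjusted p below 0.05, against 11.7% (131 of 1122). The 2 genotypes overlapped for both genes, while they did not overlap for 3.21% of the genes and loci. Without knockout replicate 5 the share called was again 0.178%. Of the 8 transcripts, 3 had a mean of at least 1 FPKM and were tested, and long Neat1 had it only through knockout replicate 5. None of the 3 passed, against 0.177% of 1131 transcripts (limma adjusted p below 0.05), and none had an unadjusted p below 0.05, against 11.2%. Their values overlapped between the genotypes, as did those of all but 2.74% of the transcripts. Without knockout replicate 5 the share of transcripts called was 0.0884%. The log2 fold change was 1.03 for full Malat1 (SE 0.728, with a limma adjusted p of 0.629), -0.62 for 5′ spliced Malat1 (SE 0.996, limma adjusted p = 0.839) and 1.10 for long Neat1 (SE 0.620, limma adjusted p = 0.541). Without knockout replicate 5 that of full Malat1 was 0.04 (limma adjusted p = 0.981) and that of long Neat1 was 0.47 (limma adjusted p = 0.891), and without knockout replicate 3 that of 5′ spliced Malat1 was 0.30 (limma adjusted p = 0.910). Fitted without a filter, short Neat1 stood at -0.11 on that scale (SE 0.0954, limma adjusted p = 0.763) and the 556-base Malat1 transcript at 0.05 (limma adjusted p = 0.917).

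**Figure D4:**
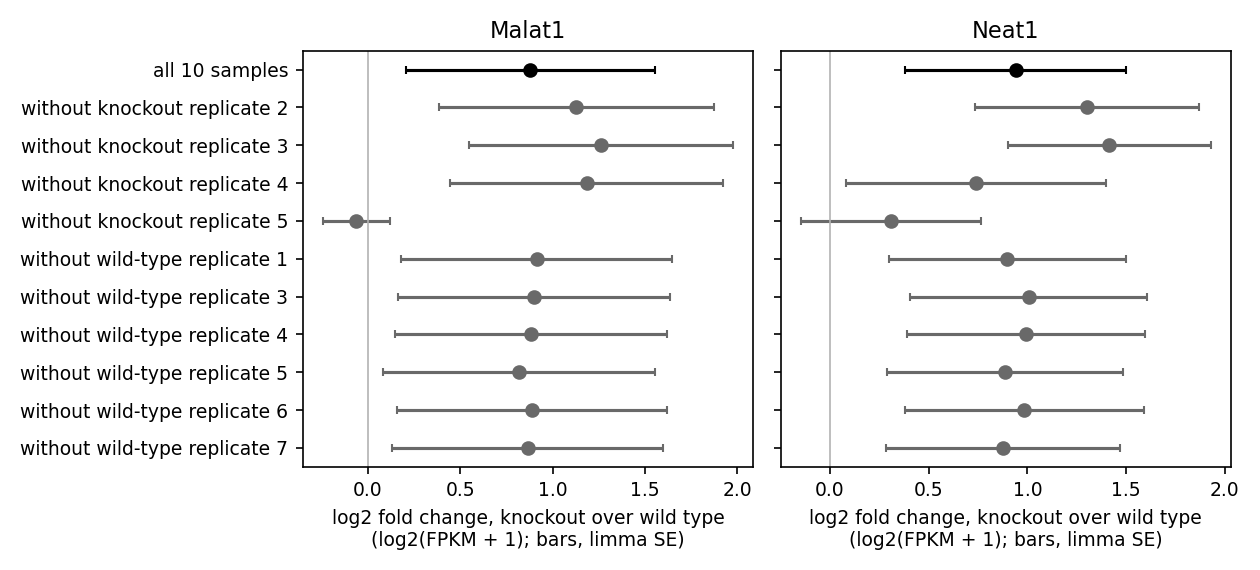
Log2 fold change of knockout over wild type for Malat1 (left) and Neat1 (right) with all 10 samples and with each sample left out in turn, as points with the limma SE as bars, on the log2(FPKM + 1) scale. For Malat1 the value lies at 0.88 with all samples and at -0.06 without knockout replicate 5, and for Neat1 it lies between 0.31 and 1.42 and stays above 0.

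The 2 RNAs did not keep a fixed ratio. Neat1 FPKM was 0.349%, 0.00717%, 4.38% and 0.948% of Malat1 FPKM in knockout replicates 2 to 5, and 0.257%, 0.973%, 0.907%, 0.282%, 0.836% and 0.174% of it in the wild types. By these percentages knockout replicate 4, with ordinary Malat1 and high Neat1, had the highest ratio. That of knockout replicate 5, with both high, lay within the wild-type range, and that of knockout replicate 3 lay below it. The mean log2 ratio of Neat1 to Malat1 (each FPKM + 1) was -5.65 ± 1.06 in knockouts and -5.71 ± 0.261 in wild types (SD, n = 4 and n = 6, exact permutation p = 0.810). On that scale knockout replicate 5, at -6.57, lay below the wild types (-6.10 to -5.49), and knockout replicate 3, at -5.92, within them. The 2 scales differ because the added 1 outweighs most Neat1 values. With 0.1 added instead, the difference between the genotypes was 0.30 (exact permutation p = 0.743).

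Across the 10 samples, on the log2(FPKM + 1) scale, Malat1 and Neat1 gave Pearson's r = 0.843 (permutation p = 0.0295). Spearman's rho was 0.576 (permutation p = 0.0878). None of the p-values for this relation was adjusted. By r with Neat1 over the 10 samples, Malat1 had rank 14 among the 1121 other genes and loci. Without the 2 samples farthest from the median of Malat1, knockout replicate 5 and wild-type replicate 5, r was 0.114 (exact permutation p = 0.752) and rho 0.238 (exact permutation p = 0.582). Without knockout replicate 5 alone, r was 0.229 (permutation p = 0.560) and rho 0.417 (permutation p = 0.270). The correlation over 10 samples rested on knockout replicate 5.

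**Figure D5:**
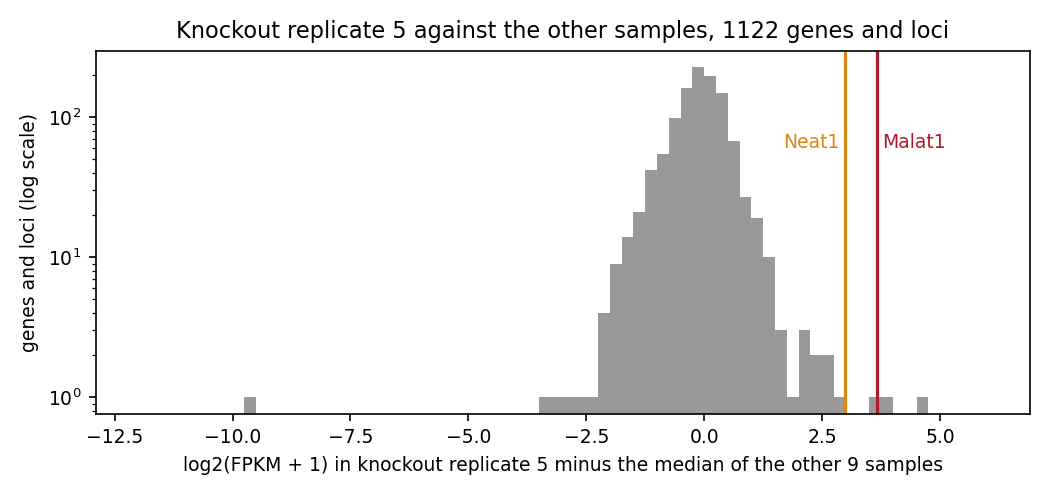
Difference of knockout replicate 5 from the median of the other 9 samples for the 1122 tested genes and loci, on the log2(FPKM + 1) scale, as a histogram with a log count axis. Lines mark Malat1 at 3.67 and Neat1 at 2.97, both at the far right of the distribution, in which 44 genes and loci reach 1 or more and 96 reach -1 or less. Neat1 met the filter on mean FPKM only through knockout replicate 5.

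Some transcripts linked to other cell types also stood apart in knockout replicate 5, and others did not. Of 9 listed fibroblast transcripts 4 were in the table (Meg3, H19, Dnm3os and Wt1os), and their summed level was 3.02 to 16.9 FPKM in knockouts, with replicate 5 at 16.9, and 2.40 to 5.08 FPKM in wild types. Meg3 gave 7.92 FPKM of the sum in knockout replicate 5. It was also the 1 transcript in the table of 7 listed for endothelial cells, so the fibroblast sum is not particular to fibroblasts. Of 10 listed immune transcripts 3 were in the table, and their sum was 2.92 to 21.7 FPKM in knockouts, with replicate 5 at 21.7, and 2.62 to 4.91 FPKM in wild types. Nearly all of the immune sum in knockout replicate 5 was Ifi30, the gene of a lysosomal thiol reductase of antigen-presenting cells. The annotation types the Ifi30 entry as a processed transcript and not as protein-coding. Mir155hg, a microRNA host of activated immune cells, was at 0.00513 FPKM in that library. Mir142hg, a microRNA host of blood cells, was at 0.215 FPKM there and 0.0659 to 0.580 FPKM in the other knockouts. In the fibroblast list Wt1os was at 0.0743 FPKM in knockout replicate 5, against at most 0.131 FPKM in the other knockouts and at most 0.204 FPKM in wild types. Carmn, the 1 smooth muscle transcript in the table of 6 listed, was at 9.56 FPKM in knockout replicate 5, 9.42 to 12.5 FPKM in the other knockouts and 12.0 to 18.0 FPKM in wild types. The 6 heart transcripts in the table, of 15 listed, summed to 19.6 FPKM in knockout replicate 5, to 27.3 to 31.5 FPKM in the other knockouts and to 25.6 to 43.4 FPKM in the wild types. Hand2os1 alone gave 15.4 FPKM of the sum in knockout replicate 5. Hand2os1, Mhrt, 1010001N08Rik and Tbx3os1 were each lowest in that library. Bvht, at 1.58 FPKM there, lay within the ranges of the other knockouts and of the wild types. Fendrr was highest there, at 0.149 FPKM. Knockout replicate 4, high in Neat1 only, had sums of 6.26 FPKM for the fibroblast list, 4.81 FPKM for the immune list and 31.5 FPKM for the heart list. The part of these transcripts in the Malat1 and Neat1 values was not tested.

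The annotated genes whose levels were most like those of the 2 RNAs over the 10 samples shared the high value of knockout replicate 5. For Malat1, the 5 with the highest Pearson's r among 260 annotated genes were Ifi30 (0.945), Snhg17 (0.900), Snhg1 (0.886), H19 (0.885) and Pvt1 (0.877). Over the 9 samples without knockout replicate 5 the r of these genes with Malat1 was -0.13, 0.551, -0.28, 0.422 and -0.46. For Neat1 they were Ifi30 (0.914), Snhg1 (0.861), Malat1 (0.843), H19 (0.828) and Snhg8 (0.821). All points share libraries and depth, and these values describe likeness only.

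Over the 9 samples other genes came first. For Malat1 they were A430046D13Rik (r = 0.809), 1110038B12Rik (0.799), 2310015A10Rik (0.766), Gm11967 (0.706) and Snhg6 (0.685). For Neat1 they were Gm31105 (r = 0.825), Gm49539 (0.798), Ifi30 (0.731), 2410006H16Rik (0.723) and Snhg5 (0.646). Ifi30 was the only gene among the 5 most like Neat1 with and without knockout replicate 5. All 5 genes most like Neat1 over the 9 samples had their highest value among those samples in knockout replicate 4, the other sample with high Neat1. These r values may therefore lean on that library, and r without it was not computed. Ifi30 stood at 4.27 FPKM there, its second highest value over all 10 samples, and ran from 2.18 to 3.92 FPKM in the wild types.

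The genes known to act with these RNAs were looked for as well. Of 20 listed paraspeckle proteins, 15 nuclear speckle proteins and 12 factors of RNA processing and stability, 0 were among the matched genes, and their mRNAs were not analysed here. Of 26 other long non-coding RNAs listed as nuclear, 24 were in the table and 11 were tested. Their place in the cell was not measured here. Of the 11, 6 were higher and 5 lower in knockouts, 0 passed, and the median log2 fold change was 0.21 (0.07 without knockout replicate 5). Over all 1122 genes and loci 499 were higher, 623 were lower and 2 passed, with a median of -0.03. The most abundant entry of the nuclear list was Gm26917, at 2507 to 4013 FPKM in knockouts and 1656 to 3540 FPKM in wild types. Next came Airn, the imprinted antisense RNA of Igf2r, at 9.31 to 13.0 FPKM in knockouts and 10.9 to 16.5 FPKM in wild types. Mir99ahg followed, at 3.62 to 5.68 FPKM in knockouts and 3.08 to 9.48 FPKM in wild types. The summed level of the nuclear list was 2559 FPKM in knockout replicate 5, 3241 to 4052 FPKM in the other knockouts and 1694 to 3580 FPKM in wild types, and Gm26917 alone made up 2507 FPKM of the sum in knockout replicate 5.

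Mainly cytoplasmic long non-coding RNAs were the comparison list. Of 23, 18 were in the table and 12 were tested, with 10 higher and 2 lower in knockouts, 0 passing, and a median log2 fold change of 0.24 (0.05 without knockout replicate 5). Knockout replicate 5 was the highest sample for 9 of those 12, against 4 of the 11 tested nuclear RNAs and 236 of all 1122. Gas5, host of small nucleolar RNAs, was at 13.2 FPKM in knockout replicate 5, 6.66 to 8.28 FPKM in the other knockouts and 5.81 to 11.0 FPKM in wild types. Snhg1, another such host, was at 9.30 FPKM in that library, 3.71 to 4.88 FPKM in the other knockouts and 3.09 to 4.73 FPKM in wild types.

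RNAs linked to hypoxia and stress overlapped with these lists, since 6 of the 7 tested (all but Mir22hg) also stand in the nuclear or the cytoplasmic list. Of 16 listed, 15 were in the table and 7 were tested, with 5 higher and 2 lower in knockouts, 0 passing, and a median log2 fold change of 0.27 (0.07 without knockout replicate 5). Their summed level was 49.6 FPKM in knockout replicate 5, 24.0 to 29.2 FPKM in the other knockouts and at most 26.7 FPKM in wild types. Mir22hg, a microRNA host, was at 6.97 FPKM in that library, 2.96 to 5.34 FPKM in the other knockouts and 3.02 to 5.40 FPKM in wild types.

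The neighbours of the 2 genes in the table did not follow them. Within 500 kb of either gene lay 13 other annotated genes of the table, most of them antisense transcripts, and 2 were tested. 4930481A15Rik, an antisense gene at chr19:5406740-5422847, averaged 3.07 ± 1.23 FPKM in knockouts and 4.15 ± 1.09 FPKM in wild types (SD, n = 4 and n = 6). The fold change of 4930481A15Rik on the log2 scale was -0.38 (SE 0.240, limma adjusted p = 0.595). Gm42067, an antisense gene at chr19:5912822-5914829, averaged 2.12 ± 0.549 FPKM in knockouts and 1.47 ± 1.08 FPKM in wild types (SD, n = 4 and n = 6). The fold change of Gm42067 on the log2 scale was 0.43 (SE 0.275, limma adjusted p = 0.599). The other 11 had a mean of at most 0.364 FPKM, the highest being Frmd8os, whose gene starts just upstream of Neat1 on the opposite strand. Knockout replicate 5 was the highest sample for 2 of the 13 neighbours, and knockout replicate 4 for 2.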

How the data were processed

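RNA was measured in 4 Sirt5 knockout and 6 wild-type left ventricles after TAC. The deposited values are FPKM per transcript, which the authors computed with StringTie 1.2.0 from reads mapped to GRCm38 with HISAT2, per the series' design text. That text also names HTSeq 0.6.1 counts, which were not used here, and different ribosomal RNA removal kits and instruments that it does not assign to samples.

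Of 19112 Ensembl identifiers 18969 matched GENCODE M21, and the table's other 1629 transcripts were assembled by StringTie. Transcript FPKM were summed per gene. Genes and transcripts whose mean over the 10 samples was at least 1 FPKM were tested on the log2(FPKM + 1) scale with limma 3.58.1 (R 4.3.3, intensity trend, Benjamini-Hochberg adjustment over the whole table, threshold 0.05). The log2 scale with its pseudocount of 1 understates changes of low values such as those of Neat1. The same features were kept when samples were left out. The gene test was also run on simulated data with independent normal noise, no outlying library and 200 of 1122 genes changed. It recovered 86% of genes changed by 1 log2 unit and 97% of those changed by 2 log2 units, with 5 of 188 calls false. These rates are averages over genes in that setting. They do not give the power for Malat1 or Neat1, whose SEs were 0.674 and 0.560. Single values were compared by exact two-sided permutation (Python 3.11.15, scipy 1.17.1), whose smallest p was 0.00476 over 210 splits. The correlation across samples used 100000 permutations where enumeration was too large.

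Depth was estimated from the steps of low FPKM values and annotated lengths. Members and gene lists were chosen with earlier results of these data known. Named genes were both members, the 5 annotated genes most like each, neighbours within 500 kb, and the most abundant members of lists. Mir155hg, Mir142hg, Dnm3os, Wt1os, Mir22hg, Bvht, Fendrr and Gm37376 were named after their values were seen. Alternatives covered pseudocount, filter, limma settings, scaling, samples left out and the replicate block.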

Additional observations from a re-analysis of the deposited data

Results flagged for a closer look

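Of 30 sets of values (genes, transcripts and shares, by genotype), 6 held a sample far from the others of its genotype by Dixon's test at the 95% level. Chance gives about 1 in 20, or 1.5 of 30, and the sets are not independent, since a transcript and its gene share reads. Of the 6, 2 were in knockout replicate 5.

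Malat1 stood at 951 FPKM in knockout replicate 5, with 59.8 to 78.9 FPKM in the other 3 knockouts. Its full transcript stood at 943 FPKM there, with 54.8 to 64.0 FPKM in the others. Short Neat1 made up 20.4% of Neat1 FPKM in knockout replicate 2 and at most 1.52% in the other knockouts. The other values are near 0 and rest on hardly any fragments. The 4-exon Neat1 transcript was at 0.0294 FPKM in knockout replicate 4, the other knockouts reaching at most 0.00429 FPKM. The distal Neat1 transcript was at 0.178 FPKM in wild-type replicate 6 and the 656-base Malat1 transcript at 1e-06 FPKM in wild-type replicate 5, each listed at 0 in the other 5 wild types.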

How the results depend on the processing

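Malat1 kept a positive log2 fold change under 20 of 22 alternatives and had a value of -0.062 without knockout replicate 5 (-0.062 also with no filter on FPKM). Neat1 stayed positive under all 22, and neither gene passed under any. Leaving out 1 sample at a time gave -0.062 to 1.26 for Malat1 (limma adjusted p 0.501 to 0.953) and 0.31 to 1.42 for Neat1 (0.302 to 0.885). That gave -1.30 to 0.30 for 5′ spliced Malat1, with 0.30 without knockout replicate 3.

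The long-form share of Neat1 differed by 4.37 to 37.3 points with samples left out in turn (exact permutation p 0.0238 to 0.857), with 37.3 without knockout replicate 3. As a share of estimated fragments it differed by -15.3 points (exact permutation p = 0.790), with that library at 0%. The full-Malat1 share difference ran from 5.80 to 12.8 points with samples left out. The log2 ratio of Neat1 to Malat1 ran from -0.44 without knockout replicate 4 to 0.37, and was -0.01 without wild-type replicate 1. The correlation of both RNAs was 0.229 without knockout replicate 5 and 0.114 without that and wild-type replicate 5.

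The limma calls over all genes were 2 with all samples and 1 to 3 with samples left out. They were 1 at the lower filter, 0 without a filter (429 at an unadjusted p below 0.05), 1 without the trend, 5 with robust fitting, 8 with array weights, 4 after quantile normalization, 7 after scaling to a common sum and 0 with the highest transcript per gene (126 unadjusted). Scaling to a common sum moved the median log2 fold change of all genes to -0.14 (-0.03 as deposited) and the share of positive ones to 27.5% (44.5% as deposited). Transcript calls were 2, with 0 to 3 when samples were left out. They were 0 with a pseudocount of 0.1, at the lower filter, without a filter (499 unadjusted) and with that without knockout replicate 5, and 0 without the trend, with robust fitting, after quantile normalization and after median-of-ratios scaling, and 4 with array weights. The cause of these shifts was not tested.

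Replicate numbers 3, 4 and 5 occur in both genotypes. Deviations of same-numbered samples correlated at -0.16, 0.18 and 0.08. These values show no steady likeness by number, and they cannot settle whether the numbers pair the samples. With the replicate block Malat1 was at 1.19 (limma adjusted p = 0.757) and Neat1 at 1.20 (limma adjusted p = 0.707), with 0 genes (103 unadjusted) and 0 transcripts (92 unadjusted) called. Of the 3 knockouts, 1 correlated best with the wild type of its own number.

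Short Neat1 rests on at most 29.3 estimated fragments per library, so shares of its forms have wide counting error, and isoform levels are estimates over shared sequence.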
